A study of Mus musculus with 9 samples.

Results

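The genes described here are 47 components of the transforming growth factor-beta (TGF-beta) superfamily pathways in mouse: 13 of the Nodal and activin branch, 20 of the bone morphogenetic protein (BMP) branch, 6 of TGF-beta itself and 8 that serve several branches. They were followed through 69 sites of changed chromatin accessibility, out of 19165 in the whole series. A site belonged to a gene when its centre had that gene as the nearest protein-coding gene body (RefSeq, GRCm38.p6) within 100 kb. At least 1 site was found for 34 of the 47 genes.

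The assay was ATAC-seq, which reads open DNA through the cuts of the Tn5 transposase, applied to E14tg2a mouse embryonic stem cells of 129SV background that stably express cRAF-ErT2, in which RAF kinase is joined to an altered hormone-binding part of the estrogen receptor. The treated libraries came from cells given 250 nM 4-hydroxytamoxifen (4OHT), which switches on ERK signalling through the fusion, for 1 h (n = 3) or 2 h (n = 3), and the control libraries from untreated cells at 0 h (n = 3). All cells, controls included, carried the cassette, were grown in serum and LIF with 2 µM of the GSK3 inhibitor Chir99021, and spent the last 24 h in serum, LIF and 250 nM of the FGF receptor inhibitor PD173074. Neither fusion-free cells nor cells given vehicle were analysed here, so effects of 4OHT itself and of ERK cannot be told apart, and the labels do not say how many clones the line stands for. The values come from the authors' deposited table, which gives each site a mean level over 4OHT libraries and over control libraries in log2 normalized reads, with a p-value and FDR of the authors' own test. It holds no value per library, so no spread between replicates can be given. The authors' FDR is copied for each site and is not a measure of that spread. The change of a site is the 4OHT level minus the control level on the log2 scale. Read depth per library is unknown.

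In these pathways a secreted dimeric ligand brings together type I and type II serine/threonine kinase receptors, and the activated type I receptor phosphorylates receptor-activated SMAD proteins, which enter the nucleus with Smad4. Nodal, activins and TGF-beta act through Smad2 and Smad3, and BMPs through Smad1, Smad5 and Smad9. In mouse embryonic stem cells BMP signalling, with its Id targets, works beside LIF in holding back neural differentiation, and Nodal signalling acts in early embryos in the epiblast and in forming mesendoderm. Extracellular antagonists, inhibitory SMADs, nuclear corepressors and ubiquitin ligases dampen both branches.

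Every site in the table passed the authors' test, with a largest FDR of 0.01. If the FDR was computed by the Benjamini-Hochberg method, it implies about 243800 tested sites, and the list is 7.86% of these. Higher sites made up 52.6% of the list. The 6 stem cell markers Pou5f1, Sox2, Nanog, Esrrb, Zfp42 and Klf4 had 17 listed sites between them. Pou5f1, Sox2 and Zfp42 had higher sites alone, Nanog and Klf4 had lower sites alone, and Esrrb had 3 higher and 4 lower. Of 5 fibroblast markers for feeder cells, Fn1 had 9 listed sites and Col1a1 had 1, all lower after 4OHT, and Col1a2, Thy1 and Vim had 0. A list of changed sites does not show the level of marker genes whose sites did not change, so neither set establishes the purity of the cells. The growth conditions given above name no feeder cells, and whether any were present or had a part in the changes below was not tested.

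As a whole the pathway genes went both ways, much as other genes did. Accessibility was higher after 4OHT at 39 of their 69 sites and lower at 30. That is 56.5% higher (exact Clopper-Pearson 95% interval 44.0 to 68.4%, which covers counting error only and treats sites as independent), beside 54.6% higher and 45.4% lower among all 16454 listed sites given to a gene. The median change was 0.74 for the pathway sites and 0.68 for all sites given to a gene, with quartiles of -0.91 and 1.45 against -0.90 and 1.5. A change of at least 1 in size on the log2 scale was listed at 41 of the 69 sites, beside 60.3% of all sites given to a gene. Gains reached 2.69, at a site of Bmp4, and losses -1.72, at a site of Noggin.

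Changed sites were common around these genes. A listed site was found for 34 of 47 genes (72.3%), beside 36.0% of all 21887 protein-coding genes. The 47 genes were chosen with earlier results of these data known, so this excess and those below were not tested. The pathway genes are longer and stand in sparser surroundings: their median length was 39.4 kb against 17.2 kb for all protein-coding genes, and the median stretch of genome to which each was the nearest gene was 118 kb against 45.0 kb. Among genes with such a stretch of 59.5 to 192.5 kb, the middle range of the pathway genes, 18 of 23 pathway genes (78.3%) had a listed site, beside 53.8% of 6613 protein-coding genes. Over territories of any size, the pathway genes held 11.6 listed sites per megabase, against 8.62 for all protein-coding genes. Within the range of 59.5 to 192.5 kb the values were 11.9 and 9.56. Skil alone, with a stretch of 63 kb, held 8 of the 34 pathway sites in that range, so the excess there leans on 1 gene. By branch, over any size, the values were 9.1 for Nodal and activin, 9.54 for BMP, 14.9 for TGF-beta and 19.9 for shared genes. The 2 higher values lean on single genes, as Tgfb2 held 6 of the 12 TGF-beta sites and Skil 8 of the 16 shared sites. Of the 34 genes, 15 had gains alone, 11 had losses alone and 8 had both. Where a gene had 3 or more sites, all of them went 1 way in 5 of 8 pathway genes, beside 32.1% of the 1930 protein-coding genes with that many. With 2 or more sites the count was 10 of 18 pathway genes (55.6%), beside 47.3% of all such genes.

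The branches differed in their counts. The Nodal and activin branch had 4 higher and 8 lower sites (33.3% higher, exact interval 9.92 to 65.1%), and the BMP branch had 16 higher and 13 lower (55.2%, exact interval 35.7 to 73.6%). Their median changes were -0.84 over the 12 Nodal and activin sites and 0.71 over the 29 BMP sites. No pathway site changed by less than 0.43 in size, so the sign of a median follows the direction with more sites. Higher sites had a median of 1.90 in the Nodal and activin branch and 1.24 in the BMP branch. For lower sites the medians were -0.91 and -1.10. The intervals overlap widely, neighbouring sites of a gene are not separate replicates, and no test of the difference between the branches was made. Beside these stand 54.6% higher sites and a median of 0.68 over all listed sites given to a gene, close to the BMP values. The medians rest on 7 Nodal and activin genes and 17 BMP genes, and both depended on which sites were counted. The BMP median was -0.14 without Id1, 0.84 without Id2 or without Id4, which have 3 sites each as Id1 does, and 1.00 without all 4 Id genes. With 1 site per gene the Nodal and activin median was 0.98 and the BMP median 1.01. The 12 sites of TGF-beta ligands and receptors had 6 of each direction. Genes that serve several branches had 13 higher and 3 lower sites, and 8 of the 13 belonged to Skil.

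**Figure D1:**
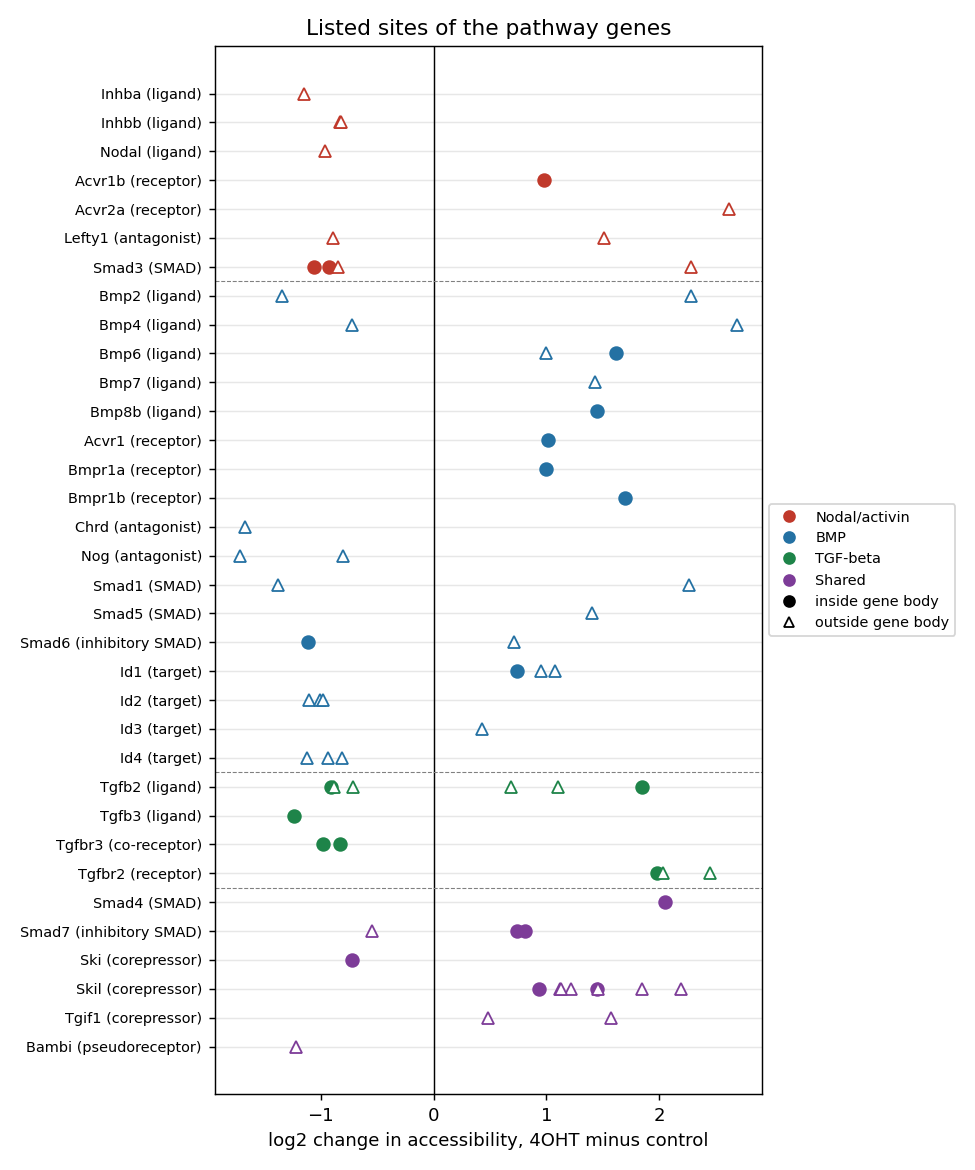
Log2 change in accessibility (4OHT minus control, x axis) of each of the 69 listed sites, with 1 row per gene grouped by branch and role; filled circles lie inside the gene body and open triangles outside it. Sites of type I and type II receptors lie right of 0, those of Nodal, Inhba, Inhbb, Nog and Chrd left of 0, and the 8 sites of Skil all to the right.

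Nodal and activin ligands had lower sites alone, 4 in number, beside 45.4% lower among all listed sites given to a gene. Their control levels ran from 6.17 to 8.87. Over all listed sites given to a gene, 49.1% were higher at control levels between 6 and 7, 33.0% between 7 and 8, and 26.8% above. Nodal, the ligand that patterns the early embryo, had 1 site, at chr10:61409630-61409910 (mm10), with its centre 8.20 kb upstream of the annotated start. Its level in the authors' deposited table was 6.17 log2 normalized reads after 4OHT against 7.13 in control, a change of -0.96 (authors' FDR 6.09e-04), or 1.95-fold less. Inhba, which encodes the activin A subunit, had 1 site 65.8 kb outside the gene at chr13:16097236-16097660, with 5.89 after 4OHT against 7.04 in control (change -1.15, authors' FDR 0.00117). Both sites of Inhbb, the activin B subunit gene, were lower as well. The Inhbb site at chr1:119329840-119330404 had 8.04 after 4OHT against 8.87 in control (authors' FDR 2.44e-04), and that at chr1:119442822-119443181 had 5.35 after 4OHT against 6.17 in control (authors' FDR 0.00729). These 4 ligand sites lie within a narrow range of change, -1.15 to -0.82. None of the 4 lies inside a gene body, and 2 of them are more than 50 kb from it. The second Inhbb site has another gene, Ralb, at 27.3 kb beside 20.8 kb to Inhbb. Gdf3, a Nodal-related ligand gene, and Tdgf1, which encodes the Nodal co-receptor Cripto, had no listed site of their own.

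Lefty1, which encodes a secreted Nodal antagonist and is itself a target of Nodal signalling, had a pair of sites that went opposite ways within 2.92 kb. The site at chr1:180933367-180934169, 1.25 kb outside the gene, had 8.35 after 4OHT against 9.24 in control in the authors' deposited table (change -0.89, authors' FDR 0.00230). Its neighbour at chr1:180931250-180931514, 3.64 kb outside the gene, had 6.55 after 4OHT against 5.04 in control (change 1.51, authors' FDR 0.00157). The site that fell thus remained the more open of the pair after 4OHT. Tmem63a lies 8.52 kb from the first and 10.9 kb from the second. Lefty2 and the activin antagonist gene Fst had no listed site of their own.

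Smad3, a receptor-activated SMAD of the Nodal, activin and TGF-beta branches, was lower at 3 of 4 sites. A pair inside the gene body, at chr9:63734765-63736220 and chr9:63741723-63742467, had changes of -0.93 and -1.06 (authors' FDR 1.77e-04 and 5.93e-04). At the wider of the pair the level was 8.35 log2 normalized reads after 4OHT against 9.28 in control, and at the narrower 8.45 after 4OHT against 9.51 in control. Upstream of the start, the site at chr9:63786025-63786739 had a change of -0.85 (6.76 after 4OHT against 7.61 in control, authors' FDR 0.00927). The last site, 35.8 kb upstream at chr9:63793632-63794018, had 6.79 after 4OHT against 4.51 in control, a change of 2.28 or 4.86-fold more (authors' FDR 2.00e-06). The 3 sites that fell were wide and open in control, and the site that rose was the narrowest and the least open of the 4. Smad2, its close relative, had no listed site of its own.

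All type I and type II receptor sites were higher after 4OHT. They numbered 8 at 6 genes, and the median change was 1.84. Over all listed sites given to a gene, 54.6% were higher and the median was 0.68. Of those with a control level below 5 log2 normalized reads, 99.5% were higher. The share was 80.0% between 5 and 6, and 49.1% between 6 and 7. All 8 receptor sites started at 6.40 or less. Tgfbr2, the type II receptor of TGF-beta ligands, held 3 of the 8. The strongest, at chr9:116223216-116223781 and 48.1 kb upstream of the start, had the smallest authors' FDR of any pathway site, with 8.85 after 4OHT against 6.40 in control in the authors' deposited table. This is a change of 2.45, or 5.46-fold (authors' FDR 3.76e-10). A second upstream site of Tgfbr2, at chr9:116250750-116250955, had 5.73 after 4OHT against 3.70 in control (change 2.03, authors' FDR 1.51e-04), and another, inside the gene at chr9:116152957-116153248, had 5.53 after 4OHT against 3.55 in control (change 1.98, authors' FDR 9.98e-04). The 3 sites span 98 kb and differ in level far more than in fold.

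The other receptors had 1 site each. Acvr1b, the type I receptor gene for activin and Nodal, had 6.41 log2 normalized reads after 4OHT against 5.43 in control inside the gene at chr15:101191504-101192002 (change 0.98, authors' FDR 0.00364). Acvr2a, a type II receptor gene of activin and BMP ligands, had 6.12 after 4OHT against 3.50 in control at chr2:48759754-48760020, 54.2 kb upstream (change 2.62, authors' FDR 0.00770). Among BMP type I receptor genes, Acvr1 rose by 1.01 at chr2:58529947-58530218 and Bmpr1a by 1.00 at chr14:34467495-34467795, each inside the gene, which is 2.01-fold for Acvr1 and 2.00-fold for Bmpr1a. The authors' FDR values were 3.44e-04 for Acvr1 and 0.00448 for Bmpr1a. Bmpr1b had 7.48 after 4OHT against 5.78 in control at chr3:142122090-142122630 (change 1.70, authors' FDR 4.63e-04). That site lies inside the gene body as RefSeq draws it but 140 kb upstream of the nearest start in the RefSeq promoter table. Median levels over the 8 receptor sites were 6.58 after 4OHT and 5.58 in control, so the receptors' sites began below the median control level of all sites given to a gene, 6.86. Tgfbr1, Bmpr2 and Acvr2b had no listed site of their own.

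The TGF-beta co-receptor gene Tgfbr3, which encodes betaglycan, went the other way from the kinase receptors. Both of its sites lay inside the gene and were lower, with changes of -0.98 at chr5:107127713-107128125 (6 after 4OHT against 6.98 in control, authors' FDR 0.00570) and -0.83 at chr5:107217213-107217895 (6.97 after 4OHT against 7.80 in control, authors' FDR 0.00950). Tgfb2 had the most sites of any ligand gene, 6 over 112 kb, with 3 in each direction. Its strongest by FDR, inside the gene at chr1:186657469-186658603, had 7.44 after 4OHT against 8.35 in control (change -0.91, authors' FDR 2.97e-07). A second site inside Tgfb2, at chr1:186675985-186676139, had 5.01 after 4OHT against 3.16 in control (change 1.85, authors' FDR 0.00811). Outside the gene its 4 sites ran from -0.88 to 1.10, and 2 of them, 36.8 and 40.2 kb away, lay next to each other with changes of 1.10 and -0.88. The Tgfb3 site, inside the gene at chr12:86071076-86071467, was lower, with 5.71 after 4OHT against 6.95 in control (change -1.24, authors' FDR 3.26e-05). Tgfb1 had no listed site of its own.

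**Figure D2:**
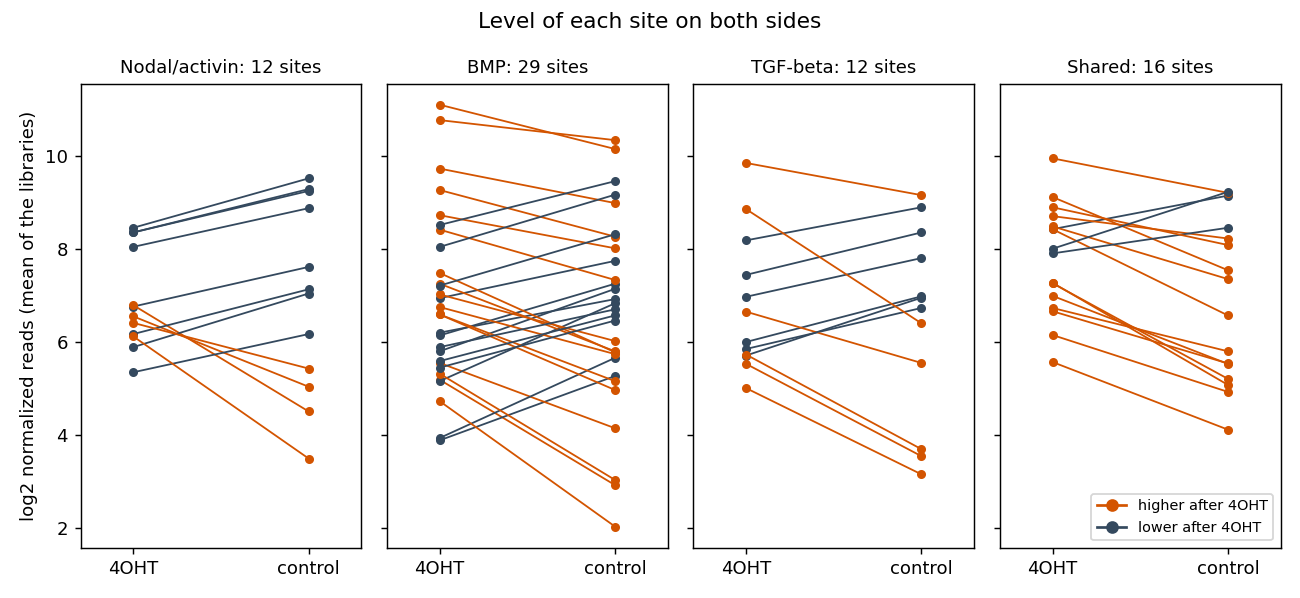
Level of each listed site in log2 normalized reads, as the authors' mean over 4OHT libraries (left) and over control libraries (right), in 1 panel per branch; orange lines are sites higher after 4OHT and dark lines sites lower after it. Orange lines mostly end at low control levels, the Id1 and Id3 sites of the BMP panel being the clearest exceptions at the top.

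BMP ligand genes were higher at 6 of 8 sites, with a median change of 1.44. Over all listed sites given to a gene, 54.6% were higher and the median was 0.68. The 6 gains had a median control level of 5.06 and the 2 losses 7.03. Over all listed sites given to a gene, 99.5% were higher below a control level of 5, 80.0% between 5 and 6, and 33.0% between 7 and 8. Bmp6 rose at both of its sites. At chr13:38361100-38361633, inside the gene, Bmp6 had 6.59 log2 normalized reads after 4OHT against 4.97 in control in the authors' deposited table (change 1.62, authors' FDR 4.06e-04), and upstream at chr13:38312091-38313157 it had 9.26 after 4OHT against 8.26 in control (change 1.00, authors' FDR 4.60e-04). Bmp8b had a site 2.04 kb downstream of its start at chr4:123106947-123107449 (7.25 after 4OHT against 5.80 in control, authors' FDR 0.00636), and Bmp7 a site 26.4 kb outside the gene at chr2:172841540-172841717 (6.59 after 4OHT against 5.16 in control, authors' FDR 0.00378). Their changes were 1.45 for Bmp8b and 1.43 for Bmp7.

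Bmp2 and Bmp4, closely related ligand genes, each had a pair of sites that went opposite ways. The Bmp4 site at chr14:46297382-46297556, 86.1 kb outside the gene, showed the largest gain among the pathway sites, 2.69, from the lowest control level, with 4.73 after 4OHT against 2.04 in control (authors' FDR 5.69e-04). The control level is about 4.11 normalized reads on the linear scale, so that fold rests on few reads. Nearer the gene, 8.98 kb upstream at chr14:46399529-46399763, Bmp4 had 6.20 after 4OHT against 6.92 in control (change -0.72, authors' FDR 0.00993). Bmp2 showed the same arrangement of a distant gain and a nearer loss, with 5.32 after 4OHT against 3.04 in control at chr2:133492912-133493061, 59.2 kb away (change 2.28, authors' FDR 3.08e-04), and 5.80 after 4OHT against 7.14 in control at chr2:133582296-133582763, 19.6 kb away (change -1.34, authors' FDR 0.00483). Bmp5 had no listed site of its own.

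The 3 sites of secreted BMP antagonist genes were lower, beside 45.4% of all listed sites given to a gene. By control level, 80.0% of all such listed sites were higher between 5 and 6, 49.1% between 6 and 7, and 33.0% between 7 and 8. Nog, which encodes Noggin, had its larger loss at chr11:89320376-89320583, 17.9 kb outside the gene, with 3.94 after 4OHT against 5.66 in control (change -1.72, or 3.29-fold less, authors' FDR 2.08e-04). The other Nog site, 60.7 kb away at chr11:89239782-89240096, had 6.94 after 4OHT against 7.74 in control (change -0.80, authors' FDR 0.00513). Chrd, the Chordin gene, had 5.16 after 4OHT against 6.83 in control at chr16:20770957-20771319, 28.8 kb outside the gene (change -1.67, authors' FDR 5.20e-04), and the Thpo gene lies 36.6 kb from the same site. The losses at Nog and Chrd include the largest and the second largest of all pathway sites. Bambi, which encodes a receptor-like protein without kinase activity that blocks signalling, was lower too at its single site, 16.5 kb outside the gene at chr18:3489958-3491118, with 8 after 4OHT against 9.22 in control (change -1.22, authors' FDR 3.97e-06).

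The Id genes, direct BMP targets that encode inhibitors of basic helix-loop-helix transcription factors, divided into a pair with gains and a pair with losses. Id1 was higher at all 3 of its sites, which span 12.0 kb. The one over the gene itself, chr2:152736051-152736696, had 9.72 log2 normalized reads after 4OHT against 8.98 in control (change 0.74, authors' FDR 0.00224), and the one just outside it, chr2:152737810-152738313, had 8.41 after 4OHT against 7.33 in control (change 1.08, authors' FDR 3.56e-04). The remaining Id1 site, 9.35 kb away at chr2:152726326-152727486, was the most open of all pathway sites after 4OHT, with 11.09 after 4OHT against 10.14 in control (change 0.95, authors' FDR 0.00133). Id3 had 1 site, 1.53 kb outside the gene at chr4:136146588-136147250, with 10.76 after 4OHT against 10.33 in control. Its change of 0.43, or 1.35-fold, was the smallest among the pathway sites (authors' FDR 0.00166).

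Id2 and Id4 were lower at all 3 sites each. Id2 had changes of -1.10, -1.01 and -0.98 at sites 12.8, 53.7 and 88.0 kb upstream of its start. The first of these, at chr12:25108577-25109223, had 7.21 after 4OHT against 8.31 in control (authors' FDR 1.99e-05). Id4 had 8.51 after 4OHT against 9.45 in control at chr13:48245217-48245980, 15.5 kb upstream (change -0.94, authors' FDR 1.33e-06), and 8.04 after 4OHT against 9.16 in control at chr13:48324000-48324700 (change -1.12, authors' FDR 5.95e-06). Its remaining site, 92.9 kb upstream, had a change of -0.81 and was the furthest from its gene of all sites counted here. The nearest listed site beyond the 100 kb limit also has Id4 as nearest gene, at 112 kb, and had a change of 1.16. The Id1 and Id3 sites lie within 10 kb of their genes, and the Id2 and Id4 sites all lie more than 10 kb away.

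The 250 bases upstream of the annotated start are shown for Id2, Id3 and Id4, the Id genes that the RefSeq promoter table holds, because members of this family had sites in opposite directions. No listed site of these genes overlaps the stretches shown. The sequences are RefSeq's for GRCm38.p6, at chr12:25096093-25096342 (minus strand) for Id2, chr4:136143572-136143821 (plus strand) for Id3 and chr13:48260866-48261115 (plus strand) for Id4. Capitals mark matches on either strand to the SMAD box CAGAC or the GC-rich BMP-responsive element GGCGCC.
Id2: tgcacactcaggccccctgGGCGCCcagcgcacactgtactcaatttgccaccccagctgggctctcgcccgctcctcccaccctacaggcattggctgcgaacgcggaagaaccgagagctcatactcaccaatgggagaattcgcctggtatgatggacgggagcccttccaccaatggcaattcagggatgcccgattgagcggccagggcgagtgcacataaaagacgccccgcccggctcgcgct
Id3: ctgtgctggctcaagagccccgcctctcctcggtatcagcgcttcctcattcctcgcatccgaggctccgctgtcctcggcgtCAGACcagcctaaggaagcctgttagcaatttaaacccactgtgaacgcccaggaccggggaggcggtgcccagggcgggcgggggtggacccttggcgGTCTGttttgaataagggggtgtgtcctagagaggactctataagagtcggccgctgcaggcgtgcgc
Id4: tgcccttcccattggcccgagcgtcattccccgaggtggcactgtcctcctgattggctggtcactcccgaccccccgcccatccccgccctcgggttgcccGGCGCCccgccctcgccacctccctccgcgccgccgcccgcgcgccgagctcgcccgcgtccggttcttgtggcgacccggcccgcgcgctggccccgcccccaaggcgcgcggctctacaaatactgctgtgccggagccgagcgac

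The element GGCGCC occurred 1 time in the Id2 stretch and 1 time in that of Id4, and 0 times in that of Id3. It is its own reverse complement and was held by 9.59% of the 32851 stretches of the same length in the promoter table. CAGAC occurred 2 times in the Id3 stretch, once on each strand, and 0 times in those of Id2 and Id4, and 42.2% of all stretches held it. The ETS core GGAAGT, the AP-1 site TGANTCA and the TATA box TATAAA had 0 matches in the 3 stretches, and were held by 19.7%, 6.75% and 12.4% of all stretches. No match overlapped another. GC content was 62.8% for Id2, 62.8% for Id3 and 75.6% for Id4, with a median of 52.4% over all stretches. A match is a string of letters and not a shown binding site.

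Among the SMADs of the BMP branch, Smad5 rose at its single site, with 5.55 after 4OHT against 4.15 in control at chr13:56671331-56671565 (change 1.40, authors' FDR 6.27e-04). That site is nearly as close to Tgfbi, at 32.1 kb, as to Smad5, at 31.6 kb. Smad1 had a pair of opposite sites, both far upstream and both weak. At chr8:79452188-79452365 it had 5.19 after 4OHT against 2.93 in control (change 2.26, authors' FDR 0.00651), and at chr8:79483684-79483831 it had 3.89 after 4OHT against 5.27 in control (change -1.38, authors' FDR 0.00633). Smad6, an inhibitory SMAD that acts mainly on BMP signalling, had 6.14 after 4OHT against 7.25 in control inside the gene at chr9:63965551-63966041 (change -1.11, authors' FDR 1.37e-04) and 8.72 after 4OHT against 8.01 in control at chr9:63909664-63910175 (change 0.71, authors' FDR 0.00836). Smad9 had no listed site of its own.

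Components shared by the branches were led by Skil, which encodes SnoN, a corepressor that binds SMADs. Skil was nearest to 8 sites and all 8 were higher, with changes of 0.93 to 2.19 and a median of 1.34. They run over 27.9 kb, 2 inside the gene and 6 beyond one end of it, with 0.957 to 9.26 kb between neighbouring centres. The site with the smallest authors' FDR, at chr3:31135263-31135539, had 7.27 after 4OHT against 5.08 in control (change 2.19, authors' FDR 2.12e-05). It is the furthest from Skil, at 12.5 kb, and lies 14.5 kb from Cldn11. The most open of the 8 in 4OHT cells was that at chr3:31134146-31134742, with 8.48 after 4OHT against 7.35 in control (change 1.13, authors' FDR 1.56e-04). Of the 158 protein-coding genes with 8 or more listed sites, 18 (11.4%) had higher sites alone. Without Skil, the pathway genes had 31 higher and 30 lower sites, and the median change was 0.43.

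**Figure D3:**
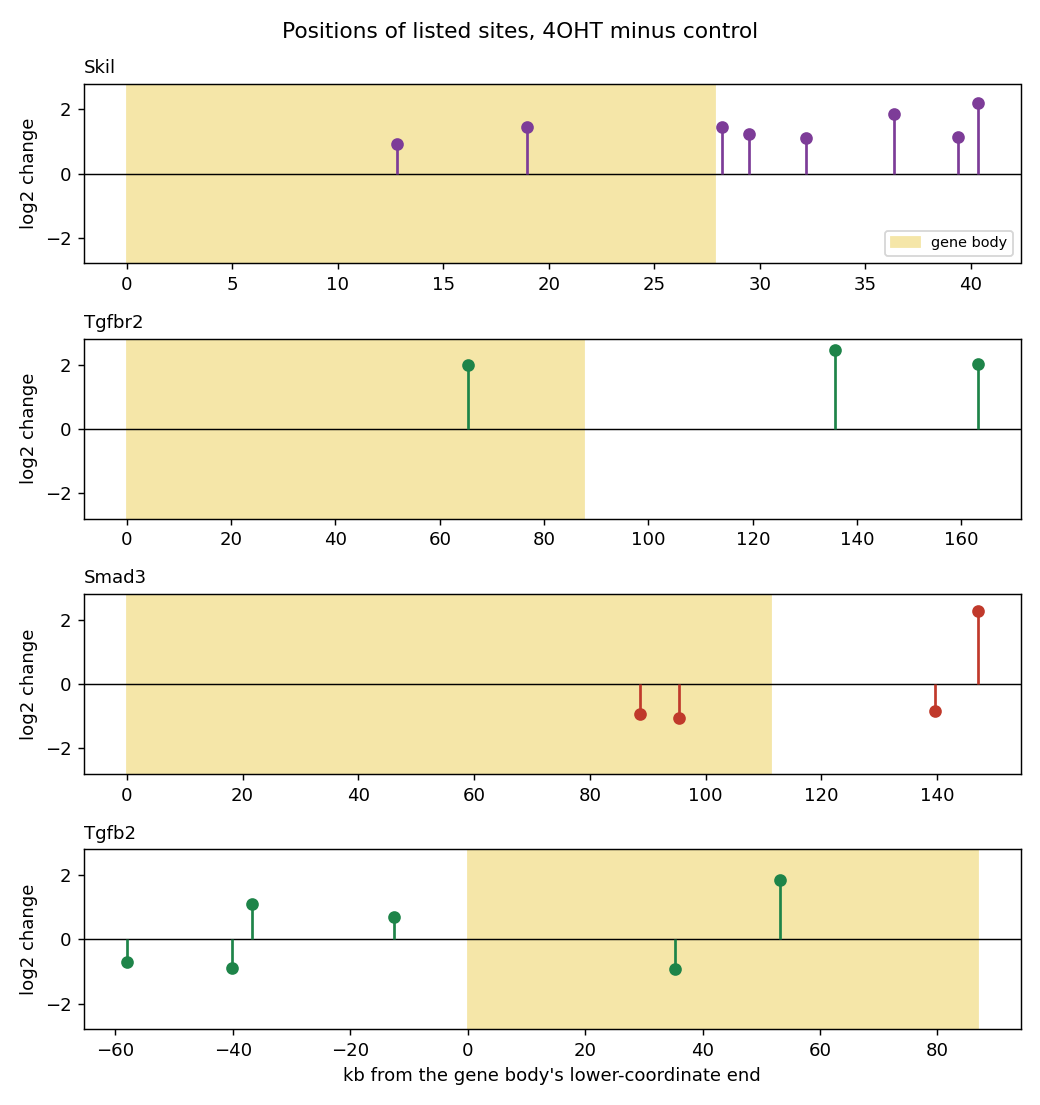
Position of the listed sites of Skil, Tgfbr2, Smad3 and Tgfb2 in kb from the lower-coordinate end of the gene body (x axis; shaded, the gene body), with the log2 change of each (4OHT minus control, y axis). Skil and Tgfbr2 have gains alone, Smad3 has 3 losses and 1 gain, and Tgfb2 has 3 of each.

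The other nuclear corepressor genes differed in direction. Tgif1, a homeobox corepressor gene of SMAD2 and SMAD3, was higher at both sites, with 9.11 after 4OHT against 7.54 in control at chr17:70908211-70908857, 55.0 kb upstream (change 1.57, authors' FDR 8.04e-07), and 8.70 after 4OHT against 8.22 in control at chr17:70836432-70837090 (change 0.48, authors' FDR 0.00310). Ski, the closest relative of Skil, was lower at its single site, inside the gene at chr4:155189271-155190567, with 8.42 after 4OHT against 9.14 in control (change -0.72, authors' FDR 0.00343). Smad4, the common SMAD, rose by 2.05 inside the gene at chr18:73664528-73664965, with 7.26 after 4OHT against 5.21 in control (authors' FDR 4.06e-06). Smad7, an inhibitory SMAD of all branches, was higher at a pair of sites inside the gene and lower at one outside it. Its strongest, at chr18:75375374-75376102, had 9.94 after 4OHT against 9.20 in control (change 0.74, authors' FDR 7.10e-05), the second, at chr18:75370186-75370784, had 8.89 after 4OHT against 8.08 in control (change 0.81, authors' FDR 0.00181), and the one outside, at chr18:75350113-75350676, had 7.90 after 4OHT against 8.45 in control (change -0.55, authors' FDR 0.00463). Smurf1 and Smurf2, ubiquitin ligase genes that target receptors and SMADs, had no listed site of their own.

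Most sites that started below a control level of 6 were higher after 4OHT, for these genes as for others. From 6 upwards the share of higher sites fell with level among all listed sites given to a gene, but not among the few pathway sites. Of the pathway sites with a control level below 5 log2 normalized reads, 12 of 12 were higher, beside 99.5% of all listed sites given to a gene at those levels. Between 5 and 6 the shares were 85.7% of 14 pathway sites and 80.0% of all, and between 6 and 7 they were 25% of 12 and 49.1% of all. Between 7 and 8 they were 30% of 10 and 33.0% of all. At 8 and above, 9 of 21 pathway sites were higher (42.9%), beside 26.8% of all. The control level enters the change, and only sites that passed the authors' test are listed, so the change and the control level are not independent. Median control levels were 5.55 at pathway sites that rose and 7.43 at those that fell, and median 4OHT levels were 6.99 and 6.48. All receptor sites had control levels of 6.40 or less, whereas the Id1, Id3 and Smad7 gains started from 7.33 or more. How far the starting level accounts for the difference between branches was not tested; median control levels were 7.08 for Nodal and activin sites and 6.70 for BMP sites.

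**Figure D4:**
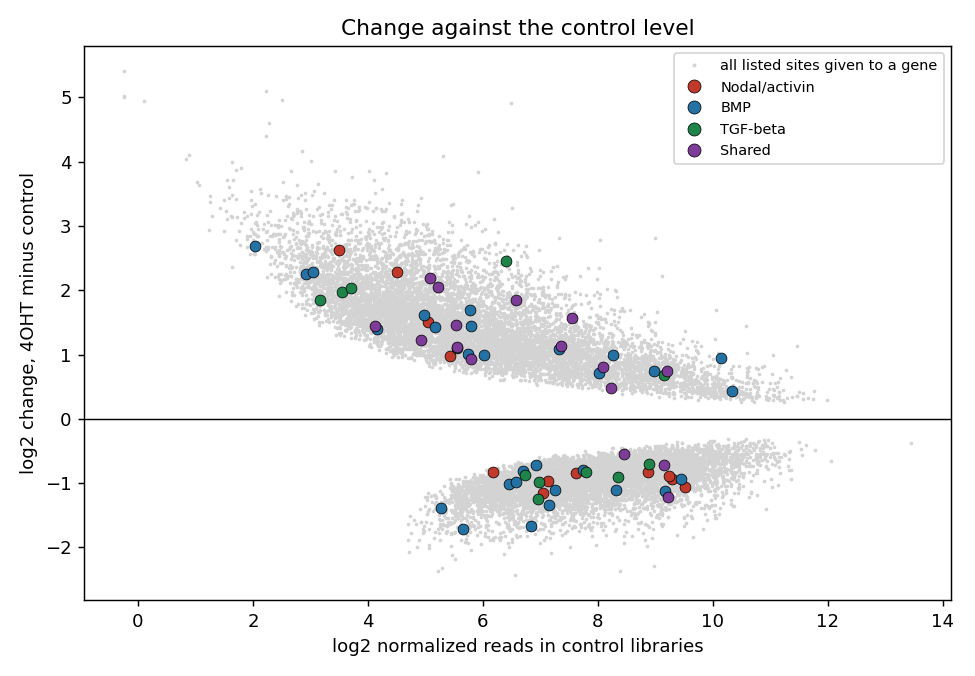
Log2 change (4OHT minus control, y axis) against the level in control libraries in log2 normalized reads (x axis), for the 69 pathway sites coloured by branch and, in grey, all 16454 listed sites given to a gene. Sites below a control level of 5 lie almost all above 0, and both directions occur at higher levels.

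Pathway sites were often outside gene bodies. Inside a gene body were 22 of 69 (31.9%), beside 57.3% of all sites given to a gene, and 15 (21.7%) were more than 50 kb away, beside 8.25%, a difference that was not tested. Within 1 kb of either end of the gene were 3 sites, of Id1 and Skil, all higher (4.35%, beside 4.68% of all). No pathway site overlapped a promoter stretch in the RefSeq table, which holds 32 of the 47 genes. Sites at the promoters of genes it lacks could not be counted. It lacks Id1, whose site at chr2:152736051-152736696 covers the lower-coordinate end of the gene body, at 152736251. Median width was 491 bp, against 473 bp for all. Pathway sites that rose had a median width of 499 bp and those that fell 479.5 bp, whereas over all sites given to a gene the medians were 412 bp for higher and 554 bp for lower sites.

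A wider list of 56 further genes of these pathways had 62 listed sites at 24 genes (42.9%, beside 36.0% of all protein-coding genes), 22 higher and 40 lower. That is 35.5% higher (exact interval 23.7 to 48.7%), beside 54.6% of all sites given to a gene, with a median change of -0.77, beside 0.68. This list too was chosen with earlier results of these data known, and the difference was not tested. Of the 24 genes, 7 had gains alone, 8 had losses alone and 9 had both. Pmepa1, a TGF-beta target gene whose product sequesters SMADs, had the most, with 7 lower and 1 higher. Its site with the smallest authors' FDR, at chr2:173284535-173285307, had 7.45 after 4OHT against 8.86 in control (change -1.41, authors' FDR 1.23e-08). Ltbp1, which encodes a protein that holds latent TGF-beta in the matrix, was lower at all 5 sites, with changes of -1.10 to -0.67. Fstl1, a follistatin-like gene, was lower at all 4, with changes of -1.11 to -0.65. Nedd4l, a ubiquitin ligase gene, and Rgma, a BMP co-receptor gene, had 4 lower and 2 higher sites each. Bmper, the gene of a secreted BMP-binding protein, had 3 lower sites and 1 with a gain of 2.95, whose level was 5.04 after 4OHT against 2.09 in control (authors' FDR 1.48e-05). Map3k7, the gene of the kinase TAK1, and Zeb2, a SMAD-binding repressor gene, had 2 lower and 1 higher each, and the phosphatase gene Ppm1a had 1 lower and 2 higher. Pcsk6, a convertase gene whose product cleaves Nodal precursor, had 3 higher sites and 1 lower. Its site at chr7:65850021-65850245 had 6.71 after 4OHT against 4.63 in control (change 2.08, authors' FDR 4.35e-07).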

How the data were processed

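ATAC-seq libraries of 9 samples were labelled 0, 1 or 2 h of 4OHT, with letters A, B and C at each time. The description fields tag libraries titled B as B2 and those titled C as B, so these may be repeats of 1 replicate. Nothing says that the letters are separate cultures. The authors' p-values therefore rest only on variation between libraries, which may be technical. Per the submitters' processing notes, Bowtie2, MACS2 and bedtools were used with the mm10 build. The sources used here do not give how reads were filtered, shifted for Tn5, normalized and tested. The deposited table gives log2 normalized reads per site and side, a log2 fold, and the authors' p-value and FDR, copied without refitting. The authors' fold is control minus 4OHT (equal to the levels' difference within 0.01), and the change used here is 4OHT minus control. That the 4OHT side pools 1 and 2 h was inferred: weights of 3 control and 6 4OHT libraries gave the table's overall mean to within 0.00986 at every site. Columns of other samples numbered 0.

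Each site centre was assigned to its nearest protein-coding body in the RefSeq table (GRCm38.p6, the assembly mm10 names), and all 47 genes were found. Gene bodies include predicted transcripts, exons and introns were not told apart, and the nearest gene need not be the one a site acts on. For 12 of the 69 sites a second protein-coding gene lay at most 10 kb further off than the nearest. Territory was counted on a 1 kb grid. Starts and strands came from the RefSeq promoter table. The members and lists were chosen with earlier results of these data known, so no list was tested. Named are all members with a listed site, each with its site of smallest FDR, and further-list genes with 3 or more sites. The assignment was tested on simulated sites. Computation was in Python 3.11.15 with scipy 1.17.1, numpy 2.4.6, pandas 2.3.3 and matplotlib 3.10.9. Alternatives were other windows, an FDR under 0.001, a change of at least 1, other rules for the nearest gene, 1 site per gene, other branch membership and leaving out the gene with most sites. Leaving out other Id genes was added after seeing the data.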

Additional observations from a re-analysis of the deposited data

How the results depend on the processing

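No paired analysis was possible because the table holds no value per library, and leaving out libraries was not run for the same reason. Over 10 alternatives the share of higher sites ran from 50 to 70.7% for all pathway sites, from 20 to 60.0% for the Nodal and activin branch and from 50 to 81.8% for the BMP branch. The BMP share was above the Nodal and activin share in 9 of the 10, and equal to it, at 60.0%, with changes of at least 1 in size. Within 10 kb, 81.8% of 11 BMP sites were higher, and 22 genes had a site, against 34 with the 100 kb limit. With changes of at least 1 in size, 29 of 41 pathway sites (70.7%) were higher, beside 6861 of 9918 among all listed sites given to a gene. At that cut the Nodal and activin median became 1.51, over 5 sites. With 1 site per gene that median was 0.98, over 7 sites. Leaving out the gene with the most sites in each branch took Id1 from the BMP branch, the first by name of 3 genes with 3 sites each, and the BMP median became -0.14. In alternatives chosen after seeing the data it was 0.84 without Id2 or without Id4 and 1.00 without the 4 Id genes. The 3 medians that changed sign rest on fewer sites by construction. For BMP the number was 26 of 29, the same as without Id2 or without Id4. Of these 26 sites 13 were higher, and the smallest change of any pathway site was 0.43 in size. The BMP median of -0.14 thus lies in the gap between losses and gains, where no pathway site lies. The number of genes with a site was 23 with FDR under 0.001 and with genes of any type, and 47 with any listed site within 100 kb. With genes of any type, 37 sites had a pathway gene as nearest, against 69 with protein-coding genes alone. The Nodal and activin branch then had 4 sites, against 12, and the BMP branch 14, against 29. Other shares stayed within the counting interval of the main share, and other medians moved by less than 1 SD between sites. These limits are wide and could hide large shifts. For the Nodal and activin branch the interval was 9.92 to 65.1% and the SD 1.43, and for BMP the SD was 1.36. With 1 site per gene the Nodal and activin share was 57.1% of 7 sites, against 33.3% of 12. Depth per library is unknown; the mean level over all libraries at the 69 sites ran from 19.0 to 1820 normalized reads, with a median of 99.7.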

Other observations

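Sites of neighbouring genes lay within 100 kb of every one of the 13 pathway genes that had no listed site of their own. They numbered 32, of which 17 were higher after 4OHT and 15 lower. Around Gdf3, whose locus also holds the pluripotency genes Nanog and Dppa3, were 5, and the 3 at Nanog or at Dppa3 more than 50 kb from Gdf3 were lower. The strongest of these, at chr6:122663797-122664132, had 6.83 log2 normalized reads after 4OHT against 8.02 in control in the authors' deposited table (change -1.19, authors' FDR 4.33e-06). A site given to Dppa3 25.4 kb from Gdf3 went the other way, with 5.58 after 4OHT against 2.8 in control (change 2.78, authors' FDR 4.05e-05). So did the site closest to Gdf3, 14.1 kb from it and given to Apobec1. That site had 9.0 after 4OHT against 7.97 in control (change 1.03, authors' FDR 3.96e-04). The site nearest to Tdgf1, 6.93 kb from it, was given to Lrrc2 and had 6.68 after 4OHT against 7.78 in control (change -1.10, authors' FDR 7.94e-06). Both Lefty1 sites lie within 34.7 kb of Lefty2. Smurf2 had 6 sites of neighbours within the limit, 4 higher and 2 lower. No value here ties any of these sites to the pathway gene rather than to the nearer neighbour.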
